A study of Mus musculus domesticus with 12 samples.

Results

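Transcripts of 8 genes that hepatocytes express at high level were followed in erythroid cells sorted from cultures of mouse fetal liver: Alb, Afp, Ttr, Ahsg, Apoa1, Apoa2, Apob and Trf. They were taken as a named list, by gene symbol, from the 55385 gene identifiers of the deposited tables, and all 8 were found. The fetal liver is the main site of red cell formation before birth, and there the erythroid cells mature beside hepatoblasts, the precursors of hepatocytes. Cells were obtained from livers of C57BL/6J embryos at stage E14.5, which were dissociated and depleted of cells that carry lineage markers. Every group was infected with a retrovirus encoding a short hairpin RNA (shRNA), directed against firefly luciferase in the controls (shLuc), against Dis3 (shDis3) or against Exosc10 (shExosc10); Dis3 and Exosc10 are the catalytic subunits of the RNA exosome, a complex that degrades RNA. After 2 days in erythroid expansion medium, GFP+ cells that were CD71int Ter119- (erythroid precursors) or CD71int/+ Ter119- (proerythroblasts) were sorted. Each of the 3 groups has 4 libraries, made from total RNA. The labels do not say how many embryos went into a library, which antibodies the depletion used, or whether the replicates of a group are separate cultures, so the p-values reflect variation among these libraries alone, which may be technical.

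Hepatocytes secrete most of the proteins of blood plasma. Alb encodes albumin, the main plasma protein, and Afp encodes alpha-fetoprotein, its fetal counterpart from the same gene family. Ttr encodes transthyretin, a carrier of thyroid hormone and of the retinol-binding protein, and Ahsg encodes fetuin-A, an inhibitor of calcification. Apoa1 and Apoa2 encode the main proteins of high-density lipoprotein, and Apob encodes the structural protein of low-density lipoprotein. Trf encodes transferrin, which carries iron to cells through the transferrin receptor, the CD71 protein used for the sort. In the liver these genes are driven together by transcription factors such as HNF4A and the FOXA proteins.

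Library totals lay between 14936200 and 32397204 counts. The targets were low in the matching libraries: Dis3 measured 38.3 normalised CPM (read counts scaled to library size) in shDis3 and 131.3 in shLuc on average, and Exosc10 measured 26.4 in shExosc10 and 98.2 in shLuc. By the correlation of log2 CPM across genes, 8 of the 12 libraries were closest to one from a different group. The highest such values were 0.986 between shLuc replicate 4 and shDis3 replicate 3 (other shLuc libraries reached 0.946 with the former, other shDis3 libraries 0.972 with the latter) and 0.981 between shDis3 replicate 4 and shExosc10 replicate 1 (0.968 and 0.942 with their own groups). Erythroid identity was clear in all 12 libraries, with summed levels of 18 erythroid markers from 1080 to 4926 TPM (a level scaled by transcript length and library size). Sums for other cell types the gate could hold ran from 32.6 to 320.4 TPM for 12 megakaryocyte markers, 0.81 to 20.0 for 12 macrophage markers, 0.68 to 18.0 for 9 endothelial markers, 1.46 to 6.36 for 10 stellate cell and fibroblast markers and 0.22 to 3.70 for 6 cholangiocyte markers. The macrophage sum rested mainly on Csf1r (mean 5.12 TPM), with 11 of the 12 markers below 1 TPM on average. The endothelial sum rested mainly on Pecam1 (mean 6.22 TPM), with 8 of the 9 below 1 TPM.

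The 8 genes differed widely in level. Apoa1 was the highest, with a mean of 11.8 ± 5.75 TPM (SD, n = 12 libraries), and 23.8% of the 21897 protein-coding genes had a higher mean. Trf followed at 2.10 ± 1.49 TPM, with 41.9% of protein-coding genes above it. The other 6 genes had means below 1 TPM: Apoa2 0.542 ± 0.524, Afp 0.513 ± 0.559, Ahsg 0.249 ± 0.290, Alb 0.224 ± 0.510, Apob 0.0675 ± 0.0845 and Ttr 0.0575 ± 0.0919. Apoa1 exceeded Trf in 11 of 12 libraries and Trf exceeded Apoa2 in all 12. Most neighbours lower in the order did not differ beyond their spread: Apoa2 was above Afp in 5 libraries and below it in 7, Alb was above Apob in 6 and below it in 5, and Apob was above Ttr in 5 and below it in 4; Afp was above Ahsg in 10 of 12. Albumin, the leading transcript of hepatocytes, had a mean below those of transferrin and apolipoprotein A1, and 56.0% of protein-coding genes had a higher mean than Alb. In bulk RNA, fewer cells of a type and less RNA per cell cannot be told apart.

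**Figure D1:**
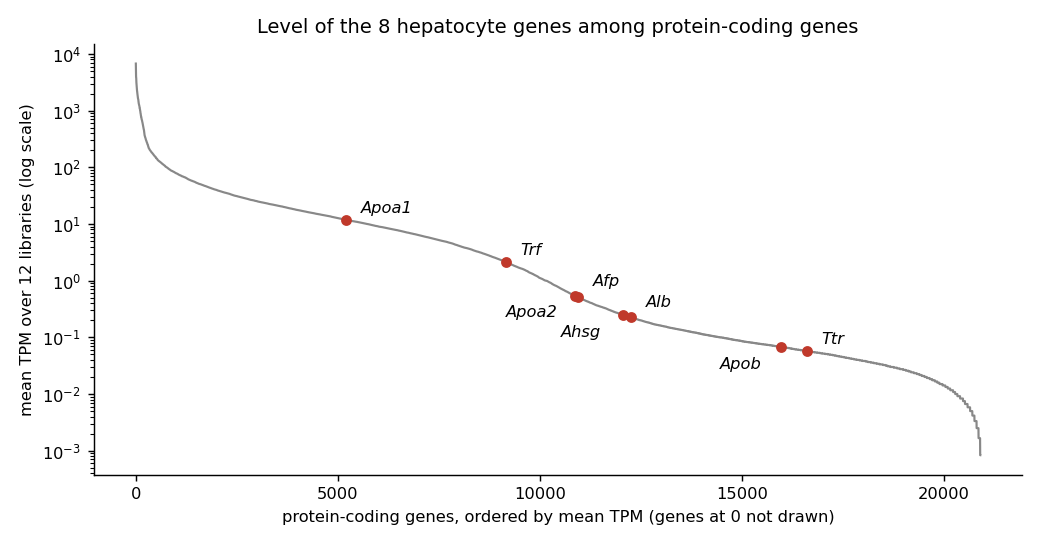
Mean TPM over 12 libraries (log scale) of protein-coding genes in order of level (grey line), with the 8 hepatocyte genes as red points. Apoa1 at 11.8 TPM and Trf at 2.10 TPM lie above the other 6, which have means of 0.542 TPM or less.

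Related genes could have shared reads, so their transcripts were compared. No stretch of 50 bases in the annotated transcripts of Alb, Afp, Apoa1, Apoa2, Apob or Ttr occurred in a transcript of another gene, on either strand. Of 3441 distinct stretches of Trf, 2012 also occurred in Gm20425, a gene model that overlaps Trf on the same strand and has no row in the deposited tables; 0.93% occurred in genes that do have a row. Ahsg shared 0.632% of its stretches with the antisense gene Gm30505, which held 0 to 4 counts per library, and the antisense gene Gm43449 over Afp held 0 in all 12. The closest stretches of 2 related pairs are shown because reads of related genes are the ones most easily misplaced. Alb and Afp lie side by side on chromosome 5, and their coding sequences share no exact run above 13 bases; Apoa1 and Apoa4 lie close together on chromosome 9 and share none above 12. Sequences are from the GENCODE M21 transcripts (GRCm38, plus strand), capitals mark the shared run, and positions count from the first base of the start codon.
Alb, coding bases 980 to 1040, in exon 8, chr5:90468617-90468677: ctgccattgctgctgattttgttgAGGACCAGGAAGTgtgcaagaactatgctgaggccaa
Afp, coding bases 1721 to 1781, across exons 13 and 14, within chr5:90507878-90508437: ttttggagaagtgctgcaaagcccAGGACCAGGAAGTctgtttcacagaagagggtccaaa
Apoa1, coding bases 669 to 728, in exon 4, chr9:46230276-46230335: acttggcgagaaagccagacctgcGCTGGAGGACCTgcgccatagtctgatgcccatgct
Apoa4, coding bases 291 to 350, in exon 3, chr9:46242393-46242452: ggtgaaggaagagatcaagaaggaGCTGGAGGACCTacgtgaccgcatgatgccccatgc

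Alb (ENSMUSG00000029368.10, chromosome 5, 90460897 to 90476602, plus strand) had 14 counts or fewer in 11 of 12 libraries. The shLuc replicates 1 to 4 had 5, 0, 1 and 1 counts. The shDis3 replicates had 0, 2, 2 and 13 counts, and those of shExosc10 had 14, 109, 0 and 0. The TPM values in the same order were 0.07, 0.00, 0.02 and 0.02 in shLuc, 0.00, 0.05, 0.32 and 0.18 in shDis3, and 0.22, 1.81, 0.00 and 0.00 in shExosc10. A single library, shExosc10 replicate 2, held 74.2% of all Alb counts, although it held 8.08% of the counts of all genes. There Alb reached 4.39 raw CPM, which is scaled to the library total without the normalisation factor (95% exact binomial interval 3.60 to 5.29, counting error only), against 0.480 (0.262 to 0.805) in shExosc10 replicate 1, the next highest. A library with 0 counts allows up to 3 counts, or 0.10 to 0.155 raw CPM in the 4 libraries at 0. The 0.32 TPM of shDis3 replicate 3 rests on 2 counts that were assigned to a short transcript of Alb (mean length 437 bases, against 2034 for the full messenger RNA, which carried the counts of shExosc10 replicate 2).

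Afp (ENSMUSG00000054932.6, chromosome 5, 90490737 to 90508907, plus strand) was present at low level in more libraries. Its counts were 7, 14, 0 and 11 in shLuc, 8, 10, 12 and 21 in shDis3, and 17, 90, 3 and 7 in shExosc10. On the TPM scale it measured 0.10, 0.89, 0.00 and 0.42 in shLuc, 0.22, 0.82, 0.22 and 0.41 in shDis3, and 0.26, 2.06, 0.18 and 0.58 under shExosc10. The mean transcript length of Afp moved from 691 to 2063 bases, so TPM and counts rank the libraries differently. Thus 14 counts gave 0.89 TPM in shLuc replicate 2, and 21 gave 0.41 TPM in shDis3 replicate 4. Values of the 3 groups overlapped, and shExosc10 replicate 2 was again the highest, with 45.0% of all Afp counts. Afm and Gc, the other genes of the albumin family beside them, had 8 and 0 counts over all 12 libraries.

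Ahsg (ENSMUSG00000022868.6, chromosome 16, 22891277 to 22899449, plus strand) showed the same library on top. Its TPM values were 0.00, 0.32, 0.40 and 0.19 in shLuc, then 0.28, 0.22, 0.12 and 0.21 in shDis3, and 0.05, 1.08, 0.00 and 0.12 in shExosc10. Of its 101 counts, 41 were in shExosc10 replicate 2, and the other 11 libraries held 0 to 15 each. The genes next to Ahsg on chromosome 16 that also encode plasma proteins had few counts over all libraries: 115 for Fetub (fetuin-B), 50 for Hrg (histidine-rich glycoprotein) and 25 for Kng1 (kininogen).

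Ttr (ENSMUSG00000061808.4, chromosome 18, 20665280 to 20674321, plus strand) was the lowest member, with 19 counts in all and 0 in 7 libraries. Its highest library was shLuc replicate 2, with 9 counts or 0.29 TPM, while the other 3 shLuc libraries were at 0. The shDis3 libraries had 0 to 3 counts and the shExosc10 libraries 0 to 3.

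Apoa2 (ENSMUSG00000005681.12, chromosome 1, 171225054 to 171226379, plus strand) had 0 to 13 counts per library. Since its transcripts are short, at about 458.0 to 500.7 bases, these few counts gave TPM values of 0.46, 1.12, 0.75 and 0.17 in shLuc, then 0.00, 0.43, 1.21 and 0.11 in shDis3, and 0.74, 1.51, 0.00 and 0.00 under shExosc10. The values overlapped across all 3 groups, and the 13 counts of shExosc10 replicate 2 were the most in any library. Apob (ENSMUSG00000020609.14, chromosome 12, 7977648 to 8016835, plus strand) is encoded by a very long messenger RNA. Its 145 counts gave 0.27 TPM or less, and 4 libraries had 0 counts. The 0.27 TPM, in shDis3 replicate 1, rests on 8 counts assigned to short transcripts of Apob (mean length 1345 bases). In shLuc replicate 2, 20 counts at a mean length of 13370 bases gave 0.05 TPM. The highest count of Apob was 40, in shExosc10 replicate 3, and not in the library that led for Alb.

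**Figure D2:**
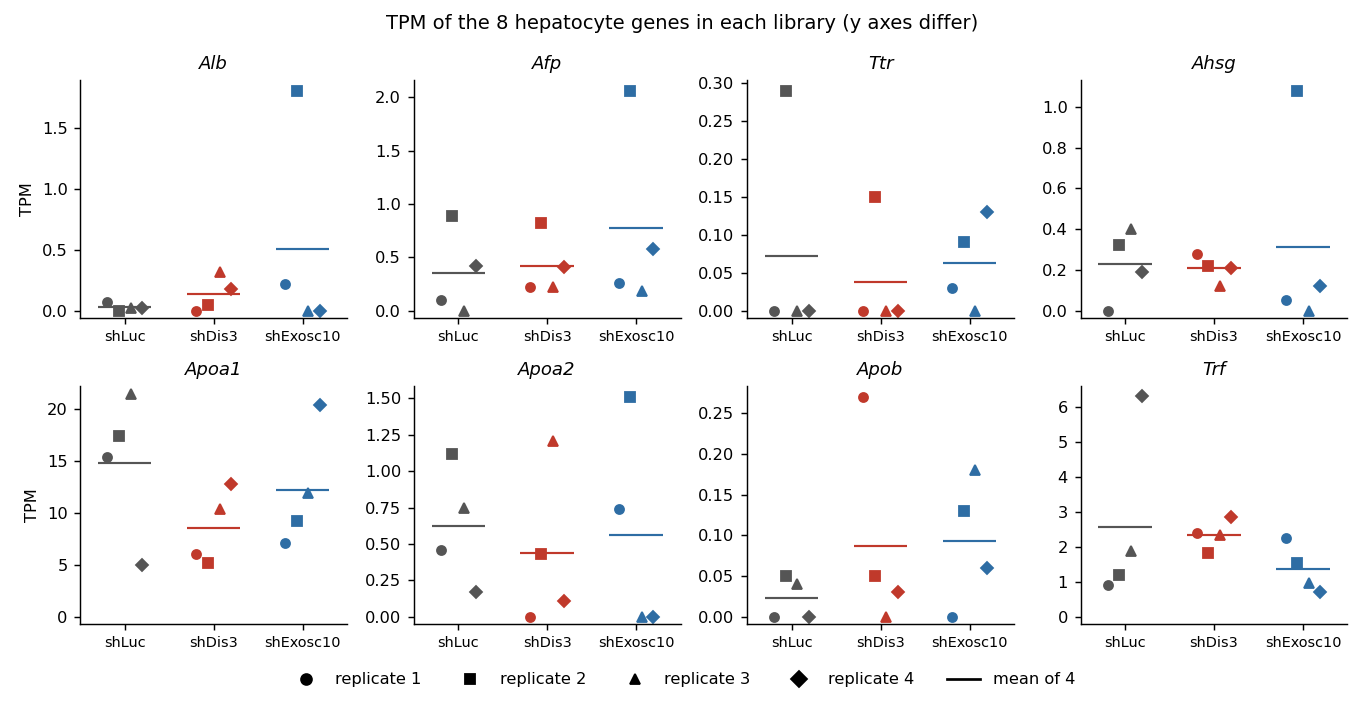
TPM of each of the 8 genes in every library, by group; marker shapes are replicate numbers, bars are means of 4, and the y axes differ between genes. shExosc10 replicate 2 (blue square) is the highest library for Alb (1.81), Afp (2.06), Ahsg (1.08) and Apoa2 (1.51), but not for Apoa1 (9.23) or Trf (1.55).

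The library shExosc10 replicate 2 stood apart for some of the liver transcripts, a choice made after these values were seen. The 6 genes other than Apoa1 and Trf summed to 283 counts there, or 11.4 raw CPM (95% exact binomial interval 10.1 to 12.8). The other 11 libraries held 16 to 62 counts, or 0.639 to 2.22 raw CPM. Further liver genes were also highest there. The 3 fibrinogen chains Fga, Fgb and Fgg, which form the clotting protein, summed to 75 counts against 0 to 16 elsewhere. Fabp1, the liver fatty acid-binding protein, had 9 counts against 0 in each of the other 11 libraries. Of 12 defining hepatocyte markers, 8 had at least 3 counts there and 1 to 6 did elsewhere, while Apoc3 and Apoh were at 0 there and Ambp and Cps1 had 1 count each. Their summed level, 2.27 TPM, was within the range of the other libraries (0.05 to 2.52). The 2.52 was in shExosc10 replicate 4, followed among the others by shDis3 replicate 2 (1.53) and shLuc replicate 2 (0.62). Few counts on short transcripts weighed in these sums. In shExosc10 replicate 4, 6 counts of Apoc3 (449 bases) gave 1.12 TPM and 10 of Vtn (836 bases) gave 0.67. In shExosc10 replicate 2, 9 counts of Fabp1 (553 bases) gave 0.87 TPM. The regulator Hnf4a was not highest there, with 10 counts against 3 to 33. The wider list of 70 liver genes described below did not set this library apart. Of these, 46 had at least 3 counts there and 14 to 45 did elsewhere, and their median was 0.095 TPM against 0 to 0.13. Detection at 3 counts also varied among 1093 olfactory receptor genes, a background set described below. Of them, 561 reached it there and 22 to 771 did elsewhere. The 771 were in shDis3 replicate 2, which also held the 6 defining markers and the 45 liver genes. The part of this background in the detection counts was not tested.

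**Figure D3:**
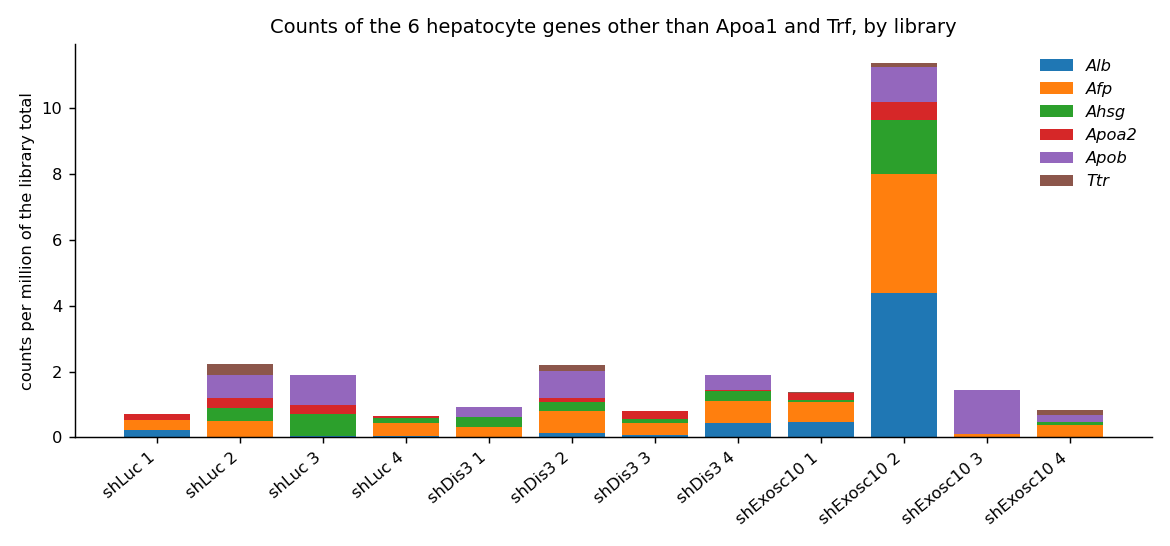
Raw CPM of the 6 genes other than Apoa1 and Trf, stacked by gene, in each of 12 libraries. shExosc10 replicate 2 reaches 11.4 raw CPM, and the others lie between 0.639 and 2.22.

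Low counts were also present for genes chosen as marks of other tissues. The 1093 olfactory receptor genes served as one such set, on the assumption, not tested here, that they are silent in blood cells. Their sum ran from 3.31 to 229.3 TPM per library. Per gene this was a mean of 0.0741 TPM in shExosc10 replicate 2, where Alb had 1.81, and at most 0.210 TPM, in shDis3 replicate 2, where Alb had 0.05. The 30 genes chosen as marks of other organs had a median of 0 to 0.195 TPM across libraries. Not all of them were low: Cela1, an elastase, had a mean of 28.6 TPM and Mbp, a myelin gene, 22.2 TPM, both above Apoa1, and Mylpf, a muscle myosin light chain, had 3.75 TPM, while 27 of the 30 were below 1 TPM. The median of the 6 low members was 1.295 TPM in shExosc10 replicate 2 and 0 to 0.305 in the other 11 libraries. Olfactory receptor levels were higher in shLuc replicate 2, shDis3 replicate 2 and shExosc10 replicate 4 (133.7, 229.3 and 112.5 TPM) than in shExosc10 replicate 2 (81.0 TPM). Ttr had its highest values in those 3 libraries, at 0.29, 0.15 and 0.13 TPM. The part of this background in the values of Ttr was not tested.

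Across a wider list of 70 hepatocyte and hepatoblast genes, 62 had a mean below 1 TPM and the median gene had a mean of 0.0621 TPM. The 12 defining markers, among them Hnf4a, Fgb, Fga, Fabp1, Apoc3, Vtn and Cps1, were all below 1 TPM on average, and their sum ran from 0.05 to 2.52 TPM per library. The regulator Hnf4a measured 0.15 ± 0.0294 TPM (SD, n = 4) in the controls, 0.233 ± 0.179 under shDis3 and 0.108 ± 0.0608 under shExosc10. Foxa1 was at 0.0475, 0.163 and 0.0425 TPM in the same order, and Prox1 at 0.113, 0.11 and 0.113 TPM. Foxa2 had 5, 2 and 6 counts summed over the 4 libraries of each group. Under shDis3, replicate 2 held 33 of the 64 Hnf4a counts and 23 of the 48 Foxa1 counts. That library was the highest in olfactory receptors (229.3 TPM). The 0.39 TPM of Hnf4a in shDis3 replicate 3 rests on 12 counts at a mean length of 1270 bases. The genes are those of hepatocytes by identity, while the markers that define the cell type were at trace levels in these sorted cells. The median gene of the 12 defining markers had a mean of 0.0508 TPM, below the 0.11 TPM of the 30 genes of other organs. The part of background in these low values was not tested.

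The 5 listed genes with means of at least 5 TPM were Ahcy (93.1 TPM), Hp (50.8), Lin28b (15.0), Ass1 (14.9) and C3 (9.21). Their roles are not limited to liver: Ahcy hydrolyses S-adenosylhomocysteine in most cells, Hp encodes haptoglobin, which myeloid cells also make, and Lin28b is a fetal RNA-binding protein. The sixth, Dlk1, a surface protein of hepatoblasts, had 4.02 TPM. None of the 21 listed genes that could be tested was called in any of the 3 comparisons. In shDis3 against shLuc 15 of the 21 had a positive log2 fold change, with a median of 0.32, where 52.6% of all genes tested did, with a median of 0.02.

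Apoa1 (ENSMUSG00000032083.8, chromosome 9, 46228580 to 46230466, plus strand) did not follow the other members. It measured 15.4, 17.4, 21.4 and 5.0 TPM in the 4 shLuc libraries in order, from 467, 452, 601 and 102 counts. Under shDis3 it measured 6.02, 5.14, 10.3 and 12.7 TPM, from 130, 86, 240 and 400 counts. The shExosc10 libraries had 7.10, 9.23, 11.9 and 20.3 TPM, from 196, 241, 336 and 402 counts. Of the shLuc libraries 3 were above all shDis3 libraries, while the fourth was the lowest of all 12, so the groups overlapped. The counts were assigned almost wholly to the full messenger RNA, since the mean transcript length stayed between 1011 and 1035 bases. Apoa1 made up 41.2% to 92.7% of the summed TPM of the 8 genes.

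The apolipoprotein genes beside Apoa1 were close to 0. Apoc3, an inhibitor of lipoprotein lipase, had 6 counts in all 12 libraries together, all in shExosc10 replicate 4. Apoa4 and Apoa5, which take part in the metabolism of triglyceride-rich lipoproteins, had 89 and 46 counts in all, with highest values of 0.76 and 0.86 TPM. Apoa1 had 3653. The 40 counts of Apoa4 in shExosc10 replicate 2 were its most in any library, as for Alb and Afp, whereas the 241 counts of Apoa1 there were within the range of the other libraries (86 to 601).

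**Figure D4:**
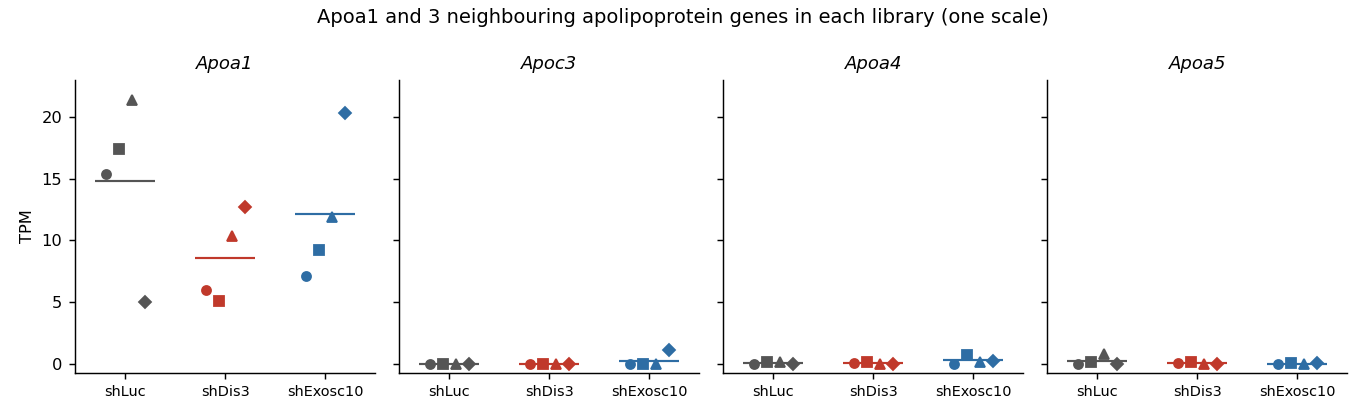
TPM of Apoa1 and of 3 neighbouring apolipoprotein genes on one scale, by group; marker shapes are replicates 1 (circle), 2 (square), 3 (triangle) and 4 (diamond), and bars are means of 4. Apoa1 lies between 5.0 and 21.4 TPM, while no value of Apoc3, Apoa4 or Apoa5 exceeds 1.12.

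Trf (ENSMUSG00000032554.15, chromosome 9, 103204001 to 103230444, minus strand) was also present in every library. It measured 0.91, 1.19, 1.88 and 6.33 TPM in shLuc, 2.41, 1.82, 2.34 and 2.85 in shDis3, and 2.25, 1.55, 0.96 and 0.71 under shExosc10. Its highest value was in shLuc replicate 4, the library lowest in Apoa1, and it exceeded the other 3 shLuc libraries more than 3-fold. The mean transcript length moved from 934 to 2571 bases between libraries, so different transcripts of Trf were assigned reads and TPM and counts rank the libraries differently: by counts, shDis3 replicate 4 was the highest with 258. Transferrin receptor, by contrast, was abundant. Tfrc measured 168.1 ± 59.3 TPM (SD, n = 4) in the controls, 107.5 ± 9.50 under shDis3 and 201.1 ± 72.0 under shExosc10. Its log2 fold change in shDis3 against shLuc was -0.97 (SE 0.34, adjusted p = 0.9998 by edgeR), which was not called.

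The next question was whether knockdown of either exosome subunit changed the members. Of the 8, Apoa1, Trf, Afp and Apob passed the filter on low counts and were tested, and Alb, Apoa2, Ttr and Ahsg did not pass. With edgeR's quasi-likelihood test none of the 4 was called in any comparison, and none was called by DESeq2 or by limma on log2(TPM + 1). DESeq2 gave no adjusted p for Afp and Apob in shDis3 against shLuc, or for any of the 4 in shExosc10 against shLuc. It could not have called them there. The background was as sparse. In shDis3 against shLuc 0% of 17650 genes were called by edgeR (719 at an unadjusted p under 0.05), with 33 by DESeq2 and 0 by limma. Dis3 itself, at 38.3 against 131.3 normalised CPM, was not called there by edgeR. A member not called in that comparison is therefore not shown to be unchanged. In shExosc10 against shLuc 0.00567% were called, which is Exosc10 itself, and in shDis3 against shExosc10 0.0113%, which are Dis3 and Exosc10. Both comparisons with shLuc share the same control libraries.

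Apoa1 averaged 17.7 ± 10.8 CPM (SD, n = 4) in the controls, 7.94 ± 4.67 under shDis3 and 12.01 ± 5.34 under shExosc10. Its log2 fold change was -1.15 in shDis3 against shLuc (SE 0.53, unadjusted p = 0.0453 and adjusted p = 0.9998 by edgeR), -0.56 in shExosc10 against shLuc (SE 0.52) and -0.59 in shDis3 against shExosc10 (SE 0.52). The first of these was -0.65 on the scale of log2(TPM + 1). Trf averaged 3.52 ± 3.18 CPM in the controls, 5.81 ± 2.56 under shDis3 and 3.29 ± 1.65 under shExosc10. Its log2 fold change was 0.72 in shDis3 against shLuc (SE 0.56), -0.10 in shExosc10 against shLuc (SE 0.56) and 0.82 in shDis3 against shExosc10 (SE 0.56). Without shLuc replicate 4, the first became 1.54 and the second 0.72, also not called.

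For Afp and Apob the standard errors exceeded 1 log2 unit. A difference of the size estimated for Apoa1, which was itself not called in this fit, was not detectable at these counts. Afp had log2 fold changes of 0.72 (SE 1.13), 1.94 (SE 1.15) and -1.22 (SE 1.13) in shDis3 against shLuc, shExosc10 against shLuc and shDis3 against shExosc10. Without shExosc10 replicate 2 the last 2 became 0.26 and 0.47. Apob had -0.07 (SE 1.63), 0.71 (SE 1.63) and -0.78 (SE 1.64) in the same order. Adjusted p-values of the 4 genes ran from 0.904 to 1 over the 12 tests by edgeR. With no filter on low counts the other 4 members could enter, and Apoa1 in shDis3 against shLuc was called at the threshold (-1.14, adjusted p = 0.0494 by edgeR), where 0.297% of 41382 genes were called. In shExosc10 against shLuc, where 0.0242% were called in that fit, Alb had an unadjusted p = 0.00975 and an adjusted p = 0.974 by edgeR, and 109 of its 123 shExosc10 counts came from replicate 2.

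**Figure D5:**
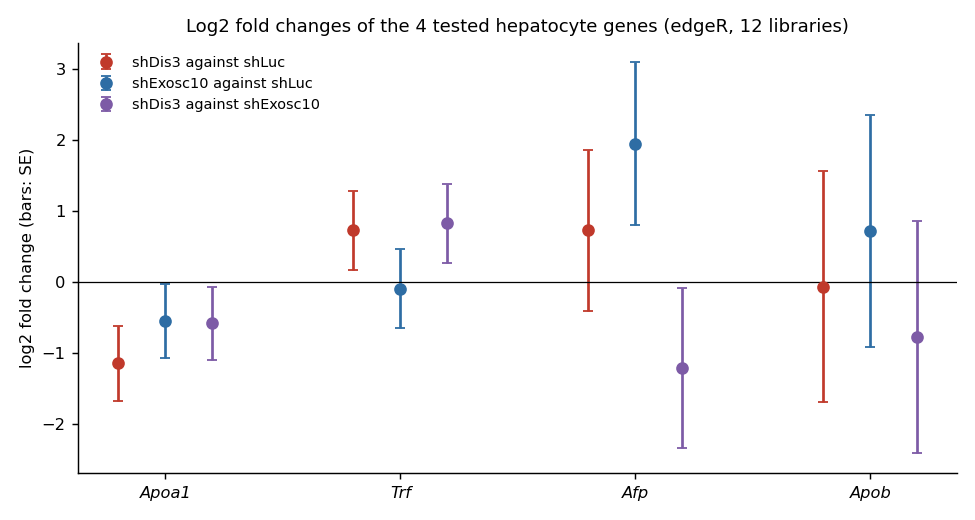
Log2 fold changes of the 4 tested genes in 3 comparisons (edgeR, 12 libraries); bars are standard errors. Apoa1 in shDis3 against shLuc lies at -1.15 with an SE of 0.53, and the bars of Afp and Apob exceed 1 log2 unit on either side.

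The direction for Apoa1 depended on which libraries were set against each other. Among the 8 libraries outside the resembling pairs, Apoa1 ran from 15.4 to 21.4 TPM in 3 shLuc libraries, 9.23 to 20.3 in 3 shExosc10 libraries and 5.14 to 6.02 in 2 shDis3 libraries. In the pair of shLuc replicate 4 and shDis3 replicate 3 the order was the opposite, at 5.0 and 10.3 TPM, and in the pair of shExosc10 replicate 1 and shDis3 replicate 4 it was 7.10 and 12.7 TPM. A fit on the 9 other libraries (shDis3 replicate 4, shExosc10 replicate 1 and shLuc replicate 4 left out) called Apoa1 lower in shDis3 against shLuc (-1.99, adjusted p = 0.00138 by edgeR, where 4.04% of 19126 genes were called) and against shExosc10 (-1.26, adjusted p = 0.028, where 3.23% were called). No member was called in shExosc10 against shLuc in that fit, where 0.0157% of genes were. The 3 libraries were picked by their resemblance to another group, and further libraries with such a resemblance remained in, shDis3 replicate 3 among them. Those left out were also the shLuc and shExosc10 libraries lowest in Apoa1 and the shDis3 library highest in it. Leaving them out therefore widened the differences of shDis3 from both groups, and these calls are no separate support for them. With the cluster of resembling libraries as a factor in the fit, Apoa1 was at -0.91 in shDis3 against shLuc (adjusted p = 0.62 by edgeR), and no member was called in any comparison, where 0.181%, 0.0227% and 0.136% of genes were. Effects of the shRNA and of what sets these libraries apart cannot be told apart here.

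Markers of megakaryocytes, the platelet-forming cells, differed between the same libraries. Their summed level was 32.6, 64.0, 77.9 and 320.4 TPM in the shLuc libraries in order. Under shDis3 it was 275.9, 290.9, 290.7 and 224.4 TPM, and under shExosc10 it was 234.9, 117.7, 97.2 and 108.3 TPM. The 3 shLuc libraries with the lowest sums had Apoa1 values of 15.4 TPM or more, and the highest sum was in the library lowest in Apoa1 and highest in Trf. All 12 markers passed the filter, led by Pf4 (114.4 TPM on average), Itga2b (23.4) and Itgb3 (12.1), and all 12 had a positive log2 fold change in shDis3 against shLuc (median 0.84) with none called. Macrophage markers also summed to their lowest value, 0.81 TPM, in shLuc replicate 1 and reached 11.6 TPM in shLuc replicate 4. The part of these cell types in the values of Apoa1 and Trf was not tested.

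The genes closest to Apoa1 over the 12 libraries in log2 CPM were Eno1b (Pearson's r = 0.918), Eif4ebp1 (0.912), Fabp5 (0.910), Tpi1 (0.899) and Pdk1 (0.898). Eno1b and Tpi1 encode enzymes of glycolysis, Pdk1 a kinase that restrains pyruvate dehydrogenase, Eif4ebp1 a repressor of translation and Fabp5 a fatty acid-binding protein; Eno1b is nearly identical to Eno1, so its counts are uncertain. Those closest to Trf were Cry1 (0.95), Il2rg (0.948), Tspan14 (0.944), Nxn (0.943) and Lat (0.934), of which Il2rg is a cytokine receptor chain and Lat an adaptor of immune receptor signalling. Both rankings were made after the values were seen. The mean profile of the 5 members with at least 10 counts on average (Alb, Afp, Apoa1, Apob and Trf) had no close match: its nearest gene reached 0.778 (AC165327.2, a processed pseudogene), followed by Bola1 (0.759), 5430414B19Rik (0.758), Ric3 (0.749) and Tmem237 (0.732). The 12 libraries share the groups and resemblances described above, so these correlations describe likeness across them and no more.

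Genes that bind or handle the member proteins ranged from abundant to nearly undetected. Of 18 listed, 11 had a mean under 1 TPM and 5 had at least 5 TPM; 15 passed the filter and none was called in any comparison. Beside Tfrc, the abundant ones include Scarb1, the receptor for high-density lipoprotein, at 42.8 TPM and Tfr2, the second transferrin receptor, at 18.7 TPM (means of 12 libraries). The median log2 fold changes of the 15 were -0.11 in shDis3 against shLuc and 0.07 in shExosc10 against shLuc. A list of 12 genes covered the uptake of transferrin-bound iron and the storage, export and control of iron. It was led by the ferritin storage chains Fth1 (1092 TPM) and Ftl1 (762.4 TPM). None was called, and 9 of 12 had a negative log2 fold change in shDis3 against shLuc (median -0.26). Of all 17650 genes tested, 8369 did (median 0.02).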

How the data were processed

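The labels' protocols name Trizol for RNA and a SMARTer stranded pico kit for the libraries. STAR 2.5.3a, RSEM 1.3.0 and GRCm38 (mm10) stand in the submitters' processing notes, with no roles; the annotation release, strand setting and any filter were not given in the sources used. As deposited, and per the file headers, each gene has an expected count (an estimated read count), TPM, FPKM (not used) and a transcript length. Of all gene values over the libraries, 4.55% were not whole counts. GENCODE M21, of that build, gave symbols and coordinates for 55144 of 55385 identifiers, matched without version.

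Expected counts were rounded and tested with edgeR 4.0.16 (R 4.3.3): quasi-likelihood test, TMM factors, default filter on low counts, all 12 libraries, group as the only term, Benjamini-Hochberg adjustment over 17650 genes, threshold 0.05. The common coefficient of variation was 60%. The code was checked on simulated counts: most planted 4-fold changes were called when each gene had its own estimated spread, and few when all genes had the common spread, so a gene not called is not shown to be unchanged. Changes were planted only in genes above a minimum level that Trf, Afp and Apob did not reach, so the check does not cover them. Alternatives were DESeq2 1.42.0, limma 3.58.1 on log2(TPM + 1) and log2(TPM + 0.1), RLE factors, no filter, the replicate number as a block, library subsets and a library cluster factor. Intervals cover counting error only. The rule for named genes covered all members, the leading genes of each list by mean TPM, the liver regulators, genomic neighbours of the members, and the 5 genes most like the members' mean profile; other genes highest in 1 library were named after their values were seen. Leading genes of the erythroid, macrophage, endothelial, stellate and cholangiocyte lists fell under the rule. Apart from Csf1r, Pecam1 and Tfrc, they are given only through their lists' sums. Some listed genes are not reported here. The members and lists were chosen with earlier results of these data known.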

Additional observations from a re-analysis of the deposited data

Results flagged for a closer look

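In 4 of 24 sets of 4 libraries (8 genes in 3 groups), 1 library lay far from the other 3. Chance marks about 1 in 20 such sets only where values are continuous, which does not hold for genes at 0 in most libraries, so the 4 are not read against that rate. Alb reached 1.81 TPM in shExosc10 replicate 2, against at most 0.22 in the other shExosc10 libraries. Ahsg reached 1.08 TPM in the same library, against at most 0.12. Ttr reached 0.29 TPM in shLuc replicate 2 and 0.15 TPM in shDis3 replicate 2, with the other 3 libraries of each group at 0; these rest on 9 and 3 counts, and any count beside 3 zeros would be marked.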

How the results depend on the processing

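The number of members called was 0 in each comparison by edgeR, and 0 in each fit that left out 1 library. With no filter, 1 member was called in shDis3 against shLuc (Apoa1, -1.14, adjusted p = 0.0494, at the threshold). With 3 resembling libraries left out (shDis3 replicate 4, shExosc10 replicate 1 and shLuc replicate 4), 1 was called in shDis3 against shLuc and 1 in shDis3 against shExosc10, again Apoa1. These 3 were the lowest shLuc and shExosc10 libraries and the highest shDis3 library for Apoa1, so leaving them out widened those differences. Of 252 alternative fold changes for the 4 members, 232 were counted as the same in direction and side of the threshold, 3 passed it and 17 changed sign. Some DESeq2 values among the 232 had no adjusted p, so for them only the direction was compared. Apob in shDis3 against shLuc became 0.08 and 0.45 with limma on log2(TPM + 1) and log2(TPM + 0.1), 0.68 with the cluster factor and 1.97 with the replicate block. In shDis3 against shExosc10 it became 0.34 with the cluster factor and 1.0 with the block. Trf in shExosc10 against shLuc became 0.37 without the 3 libraries, 0.06 with the cluster factor and 0.26 with the block. Leaving out 1 library moved Apob in shDis3 against shLuc from -0.56 to 0.71, Trf in shExosc10 against shLuc from -0.44 to 0.72 and Afp in shDis3 against shExosc10 from -1.62 to 0.47. The cause was not tested.

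Genes called in shDis3 against shLuc (0) were 123 with no filter, 1 with RLE factors, 772 without the 3 libraries, 32 with the cluster factor, 33 with DESeq2 and 0 to 146 with 1 library left out (146 without shLuc replicate 4). In shExosc10 against shLuc (1) they were 10, 3, 4 and 8 with no filter, without the 3 libraries, with the cluster factor and with DESeq2, 0 with limma at either pseudocount (1 or 0.1), and 0 to 2 with 1 library left out. In shDis3 against shExosc10 (2) these were 179, 617, 24 and 72, 0 with limma at either pseudocount, 1 with the replicate block, 1 with only the 2 groups fitted, and 1 to 2 with 1 library left out. Replicate numbers did not pair the libraries throughout: 7 of 12 same-numbered pairs correlated above 0.1 (range -0.47 to 0.773), and 4 of 12 libraries correlated best with their own number. The libraries of replicate 2 did correlate with each other, at 0.773 (shLuc and shDis3), 0.397 (shDis3 and shExosc10) and 0.373 (shLuc and shExosc10). The block called 0, 1 and 1 genes. Fold changes of Alb, Apoa2, Ttr and Ahsg have no main value, since these genes did not pass the filter. A count of 0 allows up to 0.0926 to 0.201 raw CPM, depending on the library's total.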

Other observations

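Apoe, which encodes an apolipoprotein made by liver and by macrophages and was not on a list, was chosen here after its values were seen. It measured 12.1 ± 14.7 TPM (SD, n = 4) in the controls, 16.2 ± 10.6 under shDis3 and 9.16 ± 8.74 under shExosc10, a spread within groups that exceeded the differences between them. Its lowest and highest libraries were 3.37 and 34.04 TPM, shLuc replicates 2 and 4. Apoc1, its neighbour, was on the wider liver list and ran from 0 to 3.86 TPM.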
